A study of Rattus norvegicus with 24 samples.

Results

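Red cell genes were followed in the left ventricle of 24 male Wistar rats through 5 members: Hba-a1 and Hbb, which encode the alpha and beta chains of adult hemoglobin, Ahsp, the chaperone that holds free alpha globin, Hemgn, a nuclear protein of developing red cells, and Alas2, the erythroid enzyme that starts heme synthesis. The members were taken by symbol from the deposited non-normalized table, where Ahsp stands under its older name Eraf with the suffix for a predicted gene. Each of the 5 had 1 probe, and these 5 probes were read among 22517 on the array. All 5 passed the filter on dim probes, which asked for a detection p below 0.05 on 6 or more of the 24 arrays and left 10540 probes and 10343 genes tested.

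The rats, of 300 to 350 g, either underwent a sham operation or had the left main coronary artery tied off to bring on heart failure, and their feed from that day was ordinary rodent chow or a chow rich in saturated fat. This made 4 groups of 6 animals, named by operation and feed, each animal read on 1 Illumina bead array with 50-base probes. Fat supplied 60% of the calories in the fat chow (palmitic acid 25%, stearic acid 33%, oleic acid 33%). The animals lived on a reversed light cycle and were handled between hours 3 and 6 of their dark phase. Neither the part of the ventricle taken, nor the infarct size, nor whether blood was flushed from the hearts, nor the length of feeding is given in the sources used here.

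Mature red cells of mammals have no nucleus, and young ones still carry the globin messages with which they left the marrow. In an adult rat, the globin chains, Ahsp and the erythroid heme enzyme are made in developing red cells of the marrow and spleen, and heart tissue holds blood in its vessels. Alpha and beta chains join with heme into hemoglobin, and Ahsp keeps the alpha chain soluble until a beta chain takes it up.

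Arrays detected between 8884 and 10475 probes, correlations between arrays of a group lay between 0.969 and 0.992, and precision is limited by the 6 animals per group. Undetected probes read 150.69 to 169.21 on 12 arrays, called high-background here, and 85.118 to 98.16 on the other 12, called low-background. High-background arrays numbered 5 of 6 in ligated fat, 3 of 6 in sham fat and 2 of 6 in each chow group. Between the 2 kinds of array 20.6% of genes differed at an adjusted p under 0.05 (limma), and none of the 5 members did, with differences of high minus low from -0.29 for Alas2 to 0.04 for Hba-a1 on the log2 scale; Alas2 had the smallest adjusted p of them, 0.151.

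Ventricular cardiomyocyte markers were detected, with 14 of 14 passing the filter, as the labelled tissue has. Of the listed erythroid transcription factors on the array, 3 of 9 passed the filter (Tal1, Ldb1 and Lyl1), as did 10 of 17 red cell membrane and skeleton genes, among them Epb42 and Ank1 on 24 arrays, Slc4a1 on 23 and Kel on 16, and 20 of 28 other red cell genes. Among those that did not pass, Gata1 and Klf1, which encode the main erythroid transcription factors, were detected on 0 of 24 arrays, Epor, the erythropoietin receptor, and Rhag, a membrane protein of the Rh complex, on 1 each, and Tfrc, the transferrin receptor, on 3. The embryonic and fetal globin probes Hbe1, Hbe2, Hbg1, Hbz and Hbq1, the red cell carbonic anhydrase Car1 and the beta spectrin Sptb were detected on 0 arrays. Not passing the detection limit sets only an upper bound on the level of these genes. Over the whole array 10540 of 22517 probes passed, so the shares of these lists that passed are no result in themselves. Slc4a1 and Kel were not far above background. Their highest deposited signals were 260.02 and 230.36, where undetected probes on high-background arrays read 150.69 to 169.21.

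The upstream sequences of the members are shown because 4 of the 5 have a RefSeq start in the table used (build GRCr8), and because the members varied together across animals, as reported further on. Whether the motifs have any part in that variation was not tested. Each window holds the 250 bases before the annotated start, 5′ to 3′ on the gene's strand, and capitals mark matches on either strand to 4 motifs: the GATA word (AGATAA, or its variants with T as the first or G as the last base), the CACCC box, the CCAAT box (which reads ATTGG on the other strand) and a TATA-like ATAAA. Hba-a1 lies at chr10:15842581-15842830 on the minus strand, Hbb at chr1:167663722-167663971 on the minus strand, Hemgn at chr5:65485822-65486071 on the minus strand, its only one of 2 annotated starts with a match, and Alas2 at chrX:22895200-22895449 on the plus strand.
Hba-a1: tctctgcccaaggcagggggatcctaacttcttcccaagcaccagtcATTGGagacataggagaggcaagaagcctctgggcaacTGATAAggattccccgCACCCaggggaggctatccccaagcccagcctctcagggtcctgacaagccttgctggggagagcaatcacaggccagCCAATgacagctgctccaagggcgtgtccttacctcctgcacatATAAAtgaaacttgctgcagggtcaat
Hbb: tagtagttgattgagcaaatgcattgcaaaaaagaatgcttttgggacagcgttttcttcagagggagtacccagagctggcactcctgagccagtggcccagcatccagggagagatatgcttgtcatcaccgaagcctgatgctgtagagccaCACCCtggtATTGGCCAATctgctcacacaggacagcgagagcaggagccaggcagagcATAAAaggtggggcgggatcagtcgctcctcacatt
Hemgn: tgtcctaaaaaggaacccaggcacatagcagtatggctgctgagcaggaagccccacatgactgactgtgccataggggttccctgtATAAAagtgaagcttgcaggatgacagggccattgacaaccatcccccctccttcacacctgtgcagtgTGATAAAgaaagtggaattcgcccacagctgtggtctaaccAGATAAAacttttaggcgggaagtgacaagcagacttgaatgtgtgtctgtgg
Alas2: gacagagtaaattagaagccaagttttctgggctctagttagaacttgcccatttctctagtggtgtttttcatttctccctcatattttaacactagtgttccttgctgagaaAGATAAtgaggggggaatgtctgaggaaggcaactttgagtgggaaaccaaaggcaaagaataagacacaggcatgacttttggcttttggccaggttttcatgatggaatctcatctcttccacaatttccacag

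The 2 globin windows held the same number of each motif other than the GATA word, at different distances and in a different order. Hba-a1 held 1 CACCC word 149 bases before the start, 2 CCAAT words at 203 and 71 bases, and an ATAAA at 27 bases, and Hbb held 1 CACCC word at 95 bases, 2 CCAAT words at 86 and 81 bases, on opposite strands of adjoining bases, and an ATAAA at 36 bases. A GATA word was found 165 bases before the Hba-a1 start and 136 bases before the Alas2 start, and at 94 and 53 bases before the Hemgn start shown, where each overlaps an ATAAA; the Hbb window held none. Over all 33469 windows of the same length, 27% held a GATA word, 49.2% a CACCC word, 34% a CCAAT word and 39.3% an ATAAA, so each motif is common and a match describes letters only.

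Hba-a1 read near the top of the scale on most arrays, which limits what its values can show. Its deposited signal lay between 24394 and 71264, against 74263 for the brightest probe in the table. On the 12 high-background arrays it stood at 77.23 to 99% of the highest signal of its own array, with a median of 94.19%, and 20 to 53 probes there lay within 10% of that highest signal. On the 12 low-background arrays the share was wider, from 47.02 to 100% with a median of 72.71%, and only 1 to 4 probes crowded the top. After quantile normalization a level is fixed by the rank of the probe on its array, and the rank of Hba-a1 ran from 1 to 58. Hbb stood lower, at 15.11 to 68.15% of its array's highest signal and rank 52 to 340, and Ahsp, Hemgn and Alas2 reached at most 748.278, 277.953 and 237.002.

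**Figure D1:**
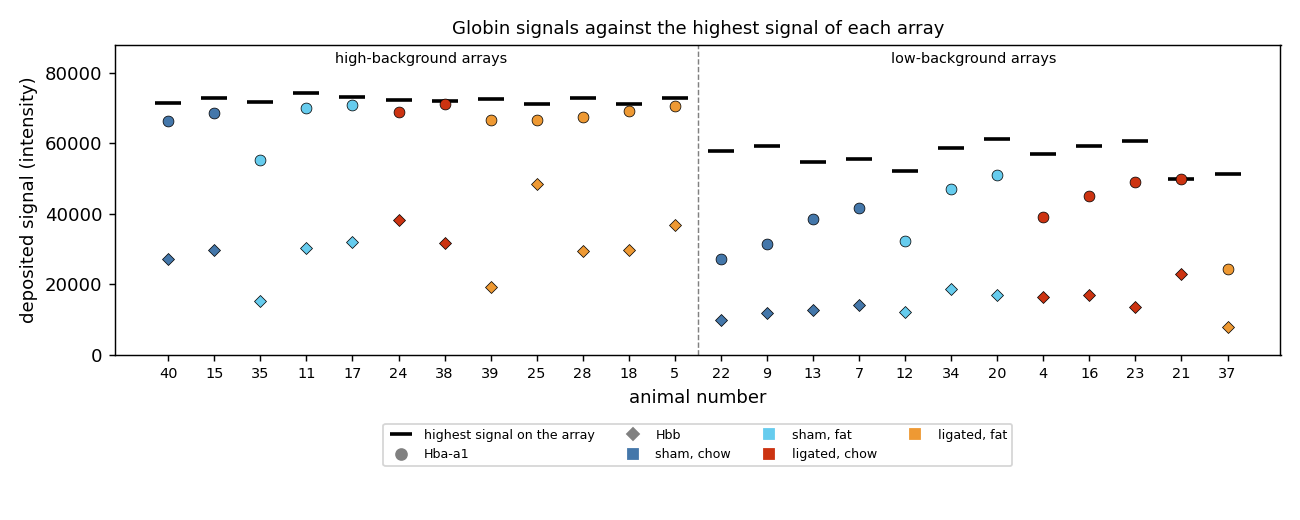
Deposited signal (vertical axis, linear intensity) of Hba-a1 (circles) and Hbb (diamonds) on each of the 24 arrays (horizontal axis, animal number), with the highest signal of the array as a bar and the group as colour. On high-background arrays Hba-a1 crowds the bar, at 77.23% of it or more, while on low-background arrays it ranges from 47.02 to 100% of it.

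Detection separated the members too. Hba-a1, Hbb and Ahsp were detected on 24 of 24 arrays and Hemgn on 23. Alas2 was detected on only 10 of 24, in 1 sham fat animal and in 3 animals of each other group, so most of its values lie close to background. Hemgn, though detected, was not far above background. Its highest deposited signal was 277.953, on a high-background array, where undetected probes read 150.69 to 169.21.

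The members differed in how far they varied between animals. Over the 24 animals the highest normalized level exceeded the lowest 9.968-fold for Ahsp, 3.653-fold for Hbb, 2.496-fold for Alas2, 2.271-fold for Hemgn and 1.689-fold for Hba-a1. The residual SD within groups was 0.68 on the log2 scale for Ahsp, above that of 98.65% of the genes tested, and 0.40 for Hbb, above that of 91.08%. For Alas2 and Hemgn it was 0.36 and 0.31, and the median over all genes was 0.23. Hba-a1, with the scale limit just described, had 0.18, above only 21.14% of genes. Levels are given below on the normalized log2 intensity scale, which does not allow one probe to be set against another.

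Hba-a1 ranged in sham chow hearts from 15.22 to 15.71 with a median of 15.65, and in sham fat hearts from 15.20 to 15.81 with a median of 15.71. In ligated chow hearts it ran from 15.71 to 15.96 with a median of 15.76, and in ligated fat hearts from 15.30 to 15.77 with a median of 15.63. The ligated chow animals formed the narrowest group (SD 0.09, n = 6) and sat at the upper end of the other groups, with overlap.

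Hbb ran in sham chow hearts from 13.87 to 14.35 with a median of 14.21, and in sham fat hearts from 13.41 to 14.59 with a median of 14.28. In ligated chow hearts it lay between 14.04 and 15.28 with a median of 14.69, and in ligated fat hearts between 13.55 and 14.71 with a median of 14.30. The 3 highest animals of all 24 were ligated on chow, yet the ligated chow range also reached below the sham medians.

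Ahsp lay in sham chow hearts between 7.19 and 8.22 with a median of 7.87, and in sham fat hearts between 6.94 and 8.24 with a median of 7.77. It lay in ligated chow hearts between 6.97 and 9.57 with a median of 8.38, and in ligated fat hearts between 6.26 and 8.10 with a median of 7.40. Ligated chow was the most spread of the groups, with 9.57 and 6.97 in the same group, and held the highest animals of the series beside some of the lowest.

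Hemgn lay between 6.13 and 6.88 in sham chow, with a median of 6.30, and between 5.82 and 6.54 in sham fat, with a median of 6.28. It lay between 5.82 and 7.00 in ligated chow, with a median of 6.39, and between 5.82 and 6.21 in ligated fat, with a median of 5.98. The ligated fat hearts were the lowest and narrowest group (SD 0.16), with no animal above the sham chow median, and still overlapped each of the others.

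Alas2 had medians close to each other: 5.82 in sham chow (5.42 to 6.47), 5.79 in sham fat (5.31 to 6.48), 5.83 in ligated chow (5.52 to 6.62) and 5.79 in ligated fat (5.54 to 6.06). The 4 groups could not be ordered for any member, since neighbouring groups overlapped throughout.

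**Figure D2:**
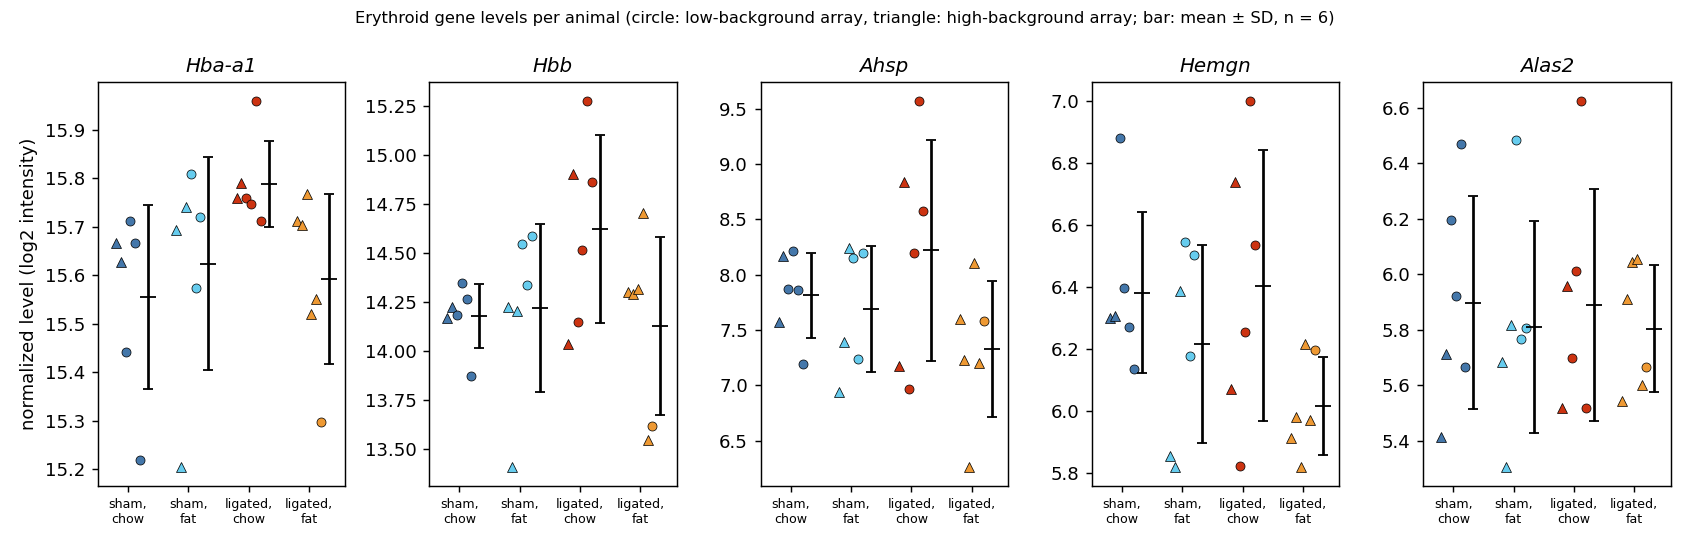
Normalized level (vertical axis, log2 intensity, a separate scale per gene) of the 5 erythroid genes in each animal of the 4 groups (horizontal axis), with circles for low-background and triangles for high-background arrays and bars for the mean ± SD (n = 6). All groups overlap in every panel, and ligated chow animal 21 is the highest point of all 24 in each, at 9.57 for Ahsp.

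One animal stood out in the normalized levels of all members. Ligated chow animal 21, on a low-background array, had the highest level of the 24 in each of Hba-a1, Hbb, Ahsp, Hemgn and Alas2. Ahsp read 9.57 in it against 8.84 in the next animal, and Hbb 15.28 against 14.90. The same animal was also the highest of 24 in Hbb-b1, at 14.38 against 13.73, in Hba-a3, at 11.65 against 10.90, in Bpgm, at 11.81 against 11.31, and in Pf4, the platelet chemokine, at 12.41 against 12.23. These genes are no separate evidence. Hbb-b1 and Bpgm were picked by likeness to a score of the members in which animal 21 is highest. Hba-a3 and Pf4 were named after their values were seen. The array of animal 21 detected 8884 probes, the fewest of the 24, and Hba-a1 was the brightest probe on it. By deposited signal this animal was not the highest of the low-background arrays in 3 members. Hba-a1 read 49926.3 in it against 50994.3 in sham fat animal 20, and Alas2 127.988 against 144.457 in the latter. Hemgn read 139.79 in animal 21 against 155.204 in sham chow animal 9. At the other end, sham fat animal 35 was among the 3 lowest animals in 4 of the 5 members, and ligated chow animal 24 was among the 3 highest in 4.

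The first comparison asks whether the ligated ventricle differs from the sham ventricle in red cell genes when the diet is ordinary. No member was called by limma at an adjusted p under 0.05, where 0.474% of all genes were called, and 2 of 5, both higher, had an unadjusted p under 0.05, where 5.84% of all genes were higher at that p. Hba-a1 was 0.23 higher on the log2 scale in ligated hearts (95% CI 0.01 to 0.45, adjusted p = 0.431, limma), with 6 of 6 ligated animals above the sham mean. Hbb was 0.44 higher (95% CI 0.00 to 0.89, adjusted p = 0.473), with 4 of 6 above the mean. In bulk tissue, more or fewer red cells in a sample and more or less RNA per red cell cannot be told apart.

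The remaining members showed smaller or less certain differences on chow. Ahsp was 0.41 higher with an interval from -0.33 to 1.14, Hemgn 0.02 higher (-0.33 to 0.37) and Alas2 0.01 lower (-0.41 to 0.39); the adjusted p was 0.76 or more for each. Without animal 21 the differences were 0.20 for Hba-a1, 0.31 for Hbb, 0.14 for Ahsp, -0.10 for Hemgn and -0.16 for Alas2, with adjusted p of 0.569 or more. Within high-background arrays, 2 ligated against 2 sham animals, Hba-a1, Hbb and Ahsp differed by 0.13, 0.27 and 0.13, and within low-background arrays, 4 against 4, by 0.28, 0.53 and 0.54.

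On saturated fat the same comparison, ligated against sham, gave values below 0 for all 5 members. No member was called, against 0.909% of all genes, and 0 of 5 reached an unadjusted p under 0.05 (limma; 11.8% of all genes did). The differences were -0.37 for Ahsp (95% CI -1.10 to 0.37), -0.20 for Hemgn, -0.09 for Hbb, -0.03 for Hba-a1 and -0.01 for Alas2, with an adjusted p of at least 0.685. Within high-background arrays, 5 ligated against 3 sham animals, Hba-a1, Hbb and Ahsp differed by 0.11, 0.28 and -0.25, and within low-background arrays, 1 against 3, by -0.40, -0.87 and -0.28, values that rest on a single ligated fat animal.

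Saturated fat against normal chow in sham hearts asks what the diet does to these genes without ligation. No member was called, against 0.0193% of all genes, and 0 of 5 had an unadjusted p under 0.05 (limma; 5.99% of all genes did). The differences lay between -0.17 for Hemgn and 0.07 for Hba-a1, with Ahsp at -0.12 (95% CI -0.86 to 0.61), and the adjusted p was 0.983 or higher for each member. Within high-background arrays, 3 fat against 2 chow animals, Hba-a1, Hbb and Ahsp differed by -0.10, -0.25 and -0.35, and within low-background arrays, 3 against 4, by 0.19, 0.32 and 0.08.

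In ligated hearts, fat against chow gave values below 0 for all 5 members, among them the largest difference of a member between 2 groups, that of Ahsp. No member was called, against 0.00967% of all genes, and 3 of 5, all lower, had an unadjusted p under 0.05, where 5.22% of all genes were lower at that p (limma). Ahsp, the alpha globin chaperone, was lower on fat by a log2 difference of -0.89 (95% CI -1.63 to -0.16, adjusted p = 0.514), or 0.539 of the chow level, with 6 of 6 fat animals below the chow mean. The 2 groups overlapped, and the ligated chow group was the wider of them.

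Hbb was at 0.710 of the chow level, a log2 difference of -0.49 (95% CI -0.94 to -0.05, adjusted p = 0.514), with 5 of 6 fat animals below the chow mean. Hemgn was at 0.764 of it, a difference of -0.39 (95% CI -0.74 to -0.04, adjusted p = 0.514), with 6 of 6 below. Hba-a1 differed by -0.20 (95% CI -0.41 to 0.02, adjusted p = 0.535), and Alas2 by -0.08 (95% CI -0.48 to 0.32, adjusted p = 0.892).

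These values moved with the background batch and with 1 animal, and their part in the result was not tested. High-background arrays made up 5 of 6 in ligated fat and 2 of 6 in ligated chow. Within high-background arrays, 5 fat against 2 chow animals, Ahsp differed by -0.73, Hbb by -0.24 and Hemgn by -0.42, and within low-background arrays, 1 fat against 4 chow, by -0.74, -1.08 and -0.21. With the batch as a block the differences were -0.79, -0.44 and -0.30 with an adjusted p of 0.996 each. Without animal 21, Ahsp was at -0.62, Hbb at -0.36 and Hemgn at -0.27. Quantile scaling holds the median of all genes near 0 here, while median scaling placed it at 0.16 and gave -0.68 for Ahsp, -0.35 for Hbb and -0.28 for Hemgn.

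**Figure D3:**
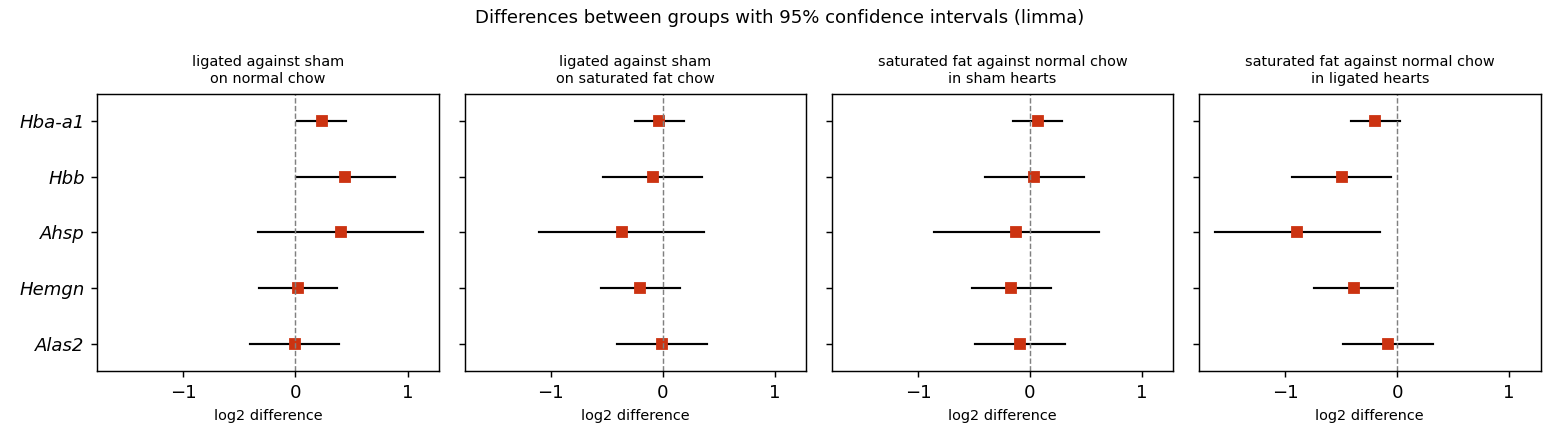
Log2 difference (horizontal axis) with its 95% confidence interval (limma, n = 6 per group) for the 5 genes in the 4 comparisons of 2 groups. The intervals of Hbb, Ahsp and Hemgn in the diet comparison of ligated hearts lie below 0 and those of Hba-a1 and Hbb for ligation on chow above 0, and no difference passed the adjusted threshold; the comparisons share groups, so the panels are not independent.

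The interaction, the surgery difference on fat minus that on chow, was -0.77 for Ahsp (95% CI -1.81 to 0.27), -0.53 for Hbb (-1.16 to 0.09), -0.26 for Hba-a1 (-0.57 to 0.05), -0.22 for Hemgn and 0.00 for Alas2. The percentage called among all genes was 0, so 0 of 5 members were called, and 0 of 5 had an unadjusted p under 0.05 (limma; 5.44% of all genes did). Within high-background arrays the interaction of Hba-a1, Hbb and Ahsp was -0.02, 0.01 and -0.38, and within low-background arrays, which hold 1 ligated fat animal, -0.69, -1.41 and -0.82. A diet difference in ligated hearts that is larger than in sham hearts was therefore not shown for any member. Over both diets, ligation gave 0 of 5 calls, against 3.19% of all genes, and 0 of 5 had an unadjusted p under 0.05 (limma; 15.6% of all genes did), with differences from -0.09 for Hemgn to 0.18 for Hbb. Over both surgeries, fat gave 0 of 5 calls, against 0.058% of all genes, with 1 member, Hemgn, lower at an unadjusted p under 0.05 (-0.28, 95% CI -0.53 to -0.03, adjusted p = 0.522), where 4.98% of all genes were lower at that p, and Ahsp at -0.51 (95% CI -1.03 to 0.01, adjusted p = 0.545).

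The members varied together from animal to animal, beyond what group and batch account for. Pairs were compared over the deviations of the 24 animals left after group means and background batch were removed, with 10 pairs in the family, Benjamini-Hochberg adjustment and a permutation p (100000 resamples, two-sided). All 10 correlations were above 0 and 8 passed an adjusted p under 0.05. The permutations treat the 24 deviations as free values, although group means and batch had been removed from them. The permutation p-values are therefore somewhat too small. The pair nearest the threshold, Ahsp and Alas2 (adjusted p = 0.0469 for r), may not pass once this is allowed for. Within single groups of 6 animals, given as a description with no test, all 10 were above 0 in sham chow, sham fat and ligated chow, the highest being 0.984 for Hbb and Ahsp in ligated chow. In ligated fat 3 of the 10 were below 0, Hba-a1 with Ahsp (-0.465), Hba-a1 with Hemgn (-0.58) and Ahsp with Alas2 (-0.166). The closest pair was Ahsp and Hemgn (Pearson r 0.83, Spearman rho 0.84, adjusted p = 1e-04 for each), from a raw p of 1e-05, the smallest these permutations can give. Without the 2 animals farthest from the median of Ahsp (animals 23 and 21) r was 0.725, and it was 0.868 within the 12 high-background arrays and 0.87 within 11 low-background ones; the single low-background ligated fat animal has no partner there and drops out.

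Hbb, the beta chain, correlated with each of the others. For Hba-a1 and Hbb, r was 0.675 (rho 0.569, adjusted p = 0.0014 and 0.0102), at 0.548 without the 2 farthest animals, 0.532 on high-background and 0.628 on low-background arrays. For Hbb and Hemgn r was 0.629 (rho 0.606, adjusted p = 0.00277 and 0.007), at 0.664 without the 2 farthest animals. For Hbb and Alas2 r was 0.624 (rho 0.55, adjusted p = 0.00277 and 0.0102), at 0.544 without them, and for Hbb and Ahsp it was 0.608 (rho 0.611, adjusted p = 0.00316 and 0.007), at 0.717 without them. For Hbb and Ahsp, r was 0.475 on high-background arrays and 0.972 on low-background ones, a difference that was not tested.

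Hba-a1 correlated with Alas2 (r 0.574, rho 0.557, adjusted p = 0.00543 and 0.0102), and did not pass with Ahsp (r 0.254, rho 0.271, adjusted p = 0.231 and 0.219), its binding partner, or with Hemgn (r 0.294, rho 0.217, adjusted p = 0.184 and 0.307). With Ahsp, r was -0.0899 on the high-background arrays, where Hba-a1 crowds the top of the scale, and 0.617 on the low-background ones. Under median scaling, which does not fix a level by rank alone, that r over all 24 animals was 0.465 (adjusted p = 0.0294). The pairs of Alas2 with Hemgn and Ahsp rested on few animals: r with Hemgn was 0.53 (rho 0.45, adjusted p = 0.0114 and 0.0409) and came to 0.385 without animals 23 and 21, and r with Ahsp was 0.427 (rho 0.429, adjusted p = 0.0469 and 0.0479) and came to 0.226 without them, where neither passed the threshold; without animal 21 alone they came to 0.401 and 0.257. Within a single batch 2 of 10 pairs passed on the high-background arrays and 3 of 10 on the low-background arrays, with 9 and 10 of 10 above 0.

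**Figure D4:**
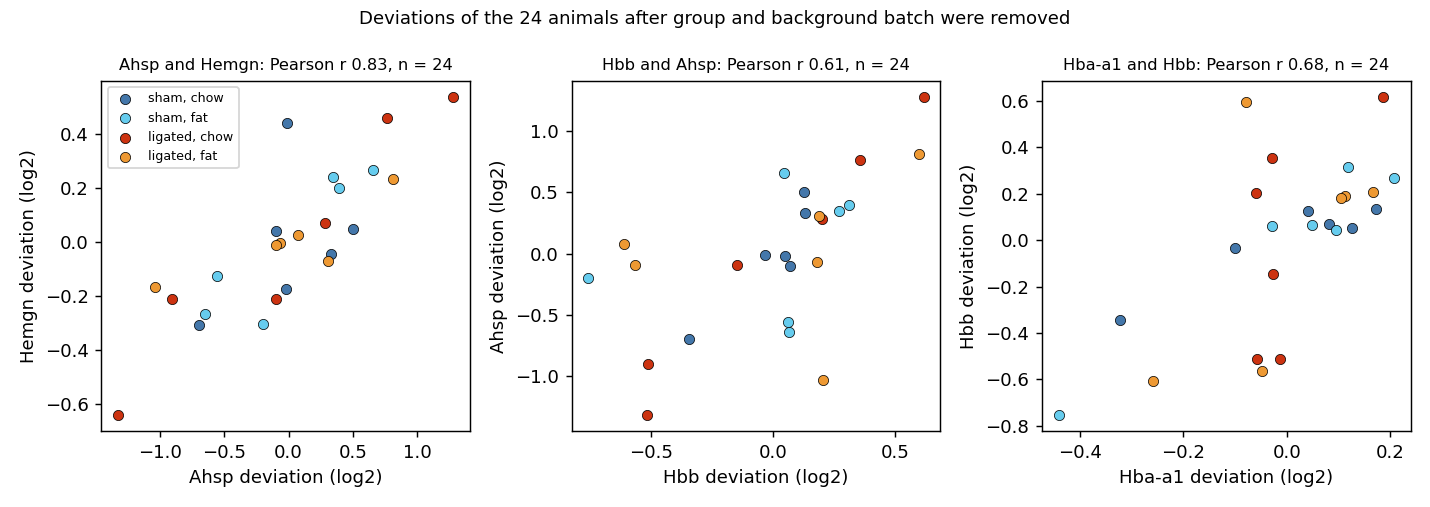
Deviation of each animal (log2, both axes) after group and background batch were removed, for Ahsp and Hemgn, Hbb and Ahsp, and Hba-a1 and Hbb, with the group as colour (n = 24). The points rise together in each panel, with r of 0.83, 0.608 and 0.675. Ligated chow animals lie at both ends of the Ahsp deviations, and sham fat animal 35 is the lowest in the panel of Hba-a1 and Hbb.

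Genes that followed the members were ranked by their r with the mean standardized deviation of Ahsp, Hemgn and Alas2, the 3 members that stayed under 37131.6, which is 0.5 of the highest signal in the table, on every array. Of these 3, Hemgn and Alas2 read near background, and whether dim probes vary together for that reason was not tested. The r is given as a description, over 24 animals that share arrays and batches; the median r over all genes was 0.00987 and 1.32% of genes exceeded 0.5. Hbb itself had 0.726 and Hba-a1 0.437. The 10 most alike genes that are no members had r from 0.657 to 0.813, and Hbb-b1 and Bpgm were the red cell genes among them.

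Hbb-b1, a second adult beta globin gene of the rat, had r 0.725 (rho 0.664, 0.632 without animals 21 and 23) and was detected on 24 arrays. Bpgm makes 2,3-bisphosphoglycerate, which lowers the oxygen affinity of hemoglobin, and had r 0.778 (rho 0.746, 0.672 without the 2 animals). The others were Mtcp1 (r 0.813), Or5an1 (0.798), LOC362797 (0.779), Glb1l (0.716), Men1 (0.71), Or5p68 (0.705), Orc5 (0.701) and Or2ak4e (0.657). Mtcp1 was detected on 6 arrays and the 3 olfactory receptor probes on 19, 20 and 23. Without animal 21, 6 of the 10 remained among the 10 most alike.

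Lists of related genes followed the members to different degrees. Among other globins, Hba-a3, a further alpha globin gene, had r 0.639, while the muscle myoglobin and cytoglobin genes did not follow and brought the median of the 4 genes that passed to 0.294. The 10 red cell membrane and skeleton genes had a median of 0.253 with 8 above 0, led by Add2, beta adducin (r 0.582, detected on 10 arrays and 0.33 without animals 21 and 23), Epb42, a red cell skeleton protein (0.489, and 0.26 without them), and Slc4a1, the band 3 anion exchanger (0.48, and 0.444 without them). Of 20 other red cell genes 19 were above 0, with a median of 0.137, and the 8 heme synthesis genes had a median of 0.0998. These list counts and medians include animals 21 and 23 and were not taken without them. Some genes fell below 0 without the 2 animals, such as Hagh (0.251 to -0.0892), Slc43a1 (0.283 to -0.127) and the membrane gene Aqp1 (0.0318 to -0.242). Others stayed above 0, such as Gclm at 0.401, Mkrn1 at 0.415 and the membrane gene Tmod1 at 0.332. Tal1, an early blood transcription factor, had 0.463, and 0.196 without those 2 animals, and was detected on 11 arrays.

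Markers of other blood cells partly moved along. The 3 platelet genes that passed, Pf4, Gp9 and Clec1b, had a median of 0.295 with 3 of 3 above 0, the 5 neutrophil genes 0.136 and the 10 lymphocyte genes 0.134. Macrophage genes had -0.16, endothelial genes -0.0342, cardiomyocyte genes -0.0313 and atrial genes -0.35. Of the platelet list, Ppbp and Selp were detected on 1 array each and Gp5 and Treml1 on 0, and the neutrophil gene S100a9 on 0. The summed normalized intensity of the 3 platelet genes, on a linear scale, lay between 1619 and 2578 in sham chow (median 1985), 1366 and 4218 in sham fat (median 1760), 2286 and 5623 in ligated chow (median 3321), and 1739 and 4997 in ligated fat (median 2573). Their part in the red cell differences was not tested.

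**Figure D5:**
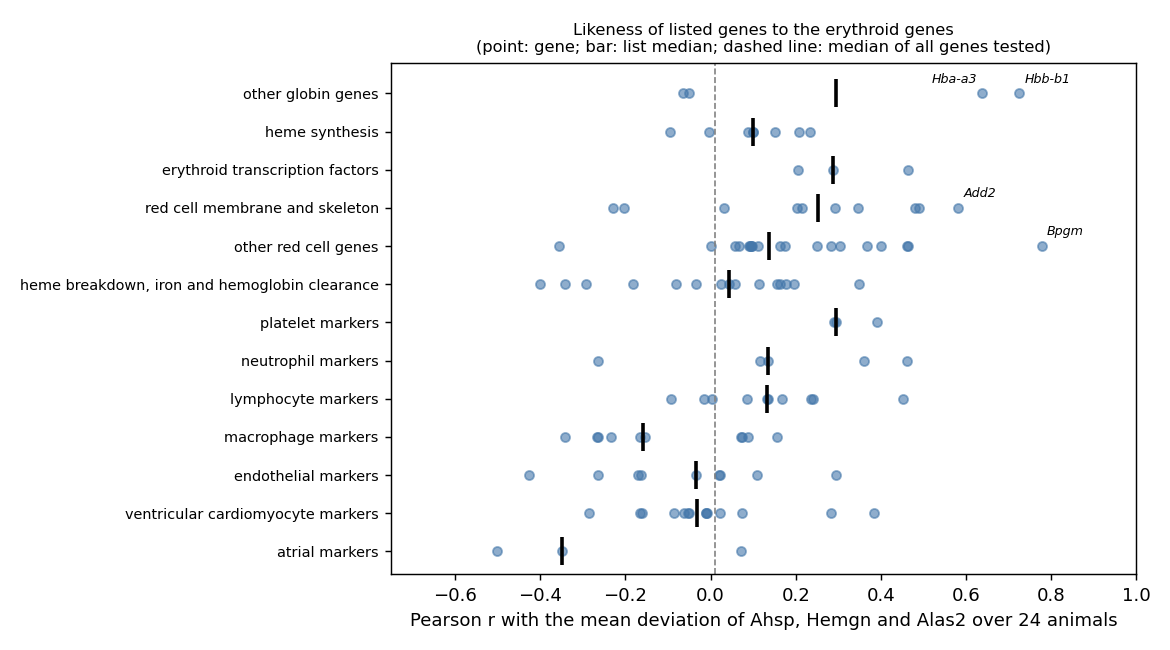
Pearson r (horizontal axis) of each listed gene with the mean deviation of Ahsp, Hemgn and Alas2 over 24 animals, by list (vertical axis), with a bar at the list median and a dashed line at 0.00987, the median of all genes. Hbb-b1, Hba-a3, Bpgm and Add2 are the genes above 0.5, and cardiomyocyte, endothelial, macrophage and atrial lists have medians below 0. The medians include animals 21 and 23 and were not taken without them.

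The other globin, heme synthesis, red cell membrane and other red cell lists gave no call in the 2 comparisons where members came closest. On chow, ligated against sham gave Hbb-b1 0.53 higher (95% CI 0.03 to 1.03, adjusted p = 0.428), Bpgm 0.33 higher (adjusted p = 0.333), Add2 0.51 higher (adjusted p = 0.155) and Pf4 0.74 higher (adjusted p = 0.283). Each of these named genes was highest in ligated chow animal 21, Add2 at 6.96 against 6.25 in the next animal. Add2 was detected in 0 of 6 sham chow animals. The differences of these genes without animal 21 are not given here. All 4 other globins and 12 of 20 other red cell genes were above 0 in that comparison. Of 10 membrane genes 6 were below 0, and of 8 heme synthesis genes 7. The list medians, in the same order, were 0.341, 0.0538, -0.0123 and -0.112, against -0.00139 over all genes. In ligated hearts, fat against chow gave Hbb-b1 at -0.77 (95% CI -1.27 to -0.27), Hba-a3 at -0.69, Add2 at -0.44, Ank1, the ankyrin of the red cell skeleton, at -0.33 and Bpgm at -0.32, each with an adjusted p of 0.514. Of the 4 other globins 3 were below 0 there, of 10 membrane genes 8, of 20 other red cell genes 14 and of 8 heme synthesis genes 5, with 0 called in each list (limma). Their medians were -0.48, -0.13, -0.08 and -0.07, against -0.01 over all genes, and the 5 members had a median of -0.39. Both comparisons use the ligated chow animals, so they are not independent of each other. Ank1 had an r of only 0.215 with the mean deviation of Ahsp, Hemgn and Alas2, and -0.00263 without the 2 animals left out above. Whether the signal of the listed red cell genes comes from red cells alone was not tested. Of the 15 genes for heme breakdown, iron and hemoglobin clearance, Hamp, the iron hormone hepcidin, rose with ligation by 1.58 on chow (adjusted p = 0.0389, limma) and by 1.92 on fat (adjusted p = 0.00666), and Lrp1, a receptor that takes up heme bound to hemopexin, rose by 0.56 on fat (adjusted p = 0.03); none was called between the diets in ligated hearts. Of the marker lists, the complement genes C1qa, C1qb and C1qc rose with ligation on fat (by 0.86, 0.68 and 0.70), the atrial gene Nppa on both diets (by 2.73 and 3.07), and the endothelial gene Vwf over both diets (by 0.32). Under median scaling, and within low-background arrays, no gene on the array was called for ligation on chow, so the calls of Hamp and Nppa on chow are lost there. The red cell, platelet, neutrophil, lymphocyte and cardiomyocyte lists gave 0 calls in the 7 comparisons (limma).

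The globin probes carry a further limit. Hba-a1, Hba-a3 and their relatives, and Hbb, Hbb-b1 and theirs, belong to families of near-identical copies, and the probe sequences were not used here, so signal read as 1 copy may come from another.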

How the data were processed

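The authors deposited a non-normalized table with a signal intensity and a detection p-value per probe and array, for which the submitters' processing notes name BeadStudio 3, and a second table of intensities that the authors normalized by a method that the sources used here do not name. The labels' protocols state Tri-reagent RNA. The files name neither chip nor date, so the background batch was read from the values.

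R 4.3.3 and limma 3.58.1 were used for normexp background correction, with negative controls inferred through detection p-values, then for adding an offset of 16, taking log2 and quantile normalization. Probes were named through a RefSeq rat gene table, by accession for 6330, by symbol for 4401, by synonym for 1404 and by gene ID for 5152; 5033 carry the file's own name and 197 are unnamed. Of several probes of a gene the one with the highest mean was used. limma's lmFit and eBayes were fitted to 4 group means (20 residual degrees of freedom) and p-values adjusted by Benjamini-Hochberg over 10343 genes. Unless stated otherwise, single-gene p-values are limma's with n = 6 per group. The code was tested on simulated data.

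Named were all members, called genes of the lists (at most 3 per comparison) and the 10 genes most alike; the brightest genes of each list, which the rule also allowed, are not named because levels of different probes cannot be compared; Hba-a3, Add2, Epb42, Slc4a1, Tal1, Ank1 and Pf4 and the undetected markers were named after their values were seen. The members and lists were chosen with earlier results of these data known. Alternatives covered the batch, background correction, scaling, filter, variance model, arrays used and each animal left out.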

Additional observations from a re-analysis of the deposited data

Results flagged for a closer look

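In 4 of the 20 sets of 6 animals checked (5 genes in 4 groups), the highest or lowest animal stood apart by Dixon's 95% criterion, which chance alone gives in about 1 of 20. Hba-a1 was highest in ligated chow animal 21, at 15.96. Hbb was lowest in sham chow animal 22, at 13.87, and in sham fat animal 35, at 13.41. Hemgn was highest in sham chow animal 9, at 6.881.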

How the results depend on the processing

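Across 956 values of the members under the alternatives, 0 were called and 86 had the opposite sign to the reported value, none of them called. In ligated hearts, fat against chow stayed below 0 under every alternative run for Ahsp (-1.14 to -0.62), Hbb (-1.08 to -0.24), Hemgn (-0.50 to -0.20) and Hba-a1 (-0.50 to -0.12). No paired analysis was possible because the animal numbers are not shared between groups. The cause of the changes below was not tested. Precision is limited by 6 animals per group, by the top of the scale for Hba-a1 and by background for Alas2 and, to a lesser degree, Hemgn.

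Opposite signs were these. With the batch as a block, Alas2 read 0.0902 for ligation on fat, 0.0609 for fat in ligated hearts, 0.0407 for ligation over both diets and 0.0114 for fat over both surgeries. Median scaling gave -0.0557 for Hemgn (ligation on chow), 0.00552 for Alas2 (ligation on fat) and -0.0389 for Hba-a1 (ligation over both diets). For Alas2, the authors' normalized table gave 0.0123 for ligation on fat and 0.00365 over both diets, no background correction 0.0118 and 0.00345, and an offset of 50 gave an interaction of -0.0065.

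Within high-background arrays ligation on fat read 0.106 for Hba-a1, 0.284 for Hbb and 0.228 for Alas2, ligation on chow 0.173 for Alas2, and ligation over both diets -0.0579 for Ahsp, 0.031 for Hemgn and 0.201 for Alas2. Fat in sham hearts read -0.1 for Hba-a1, -0.252 for Hbb and 0.0382 for Alas2, fat in ligated hearts 0.0935 and fat over both surgeries 0.0658 for Alas2, the interaction 0.0146 for Hbb, and r of Hba-a1 with Ahsp -0.0899. Within low-background arrays ligation on chow read -0.0172 for Hemgn, ligation over both diets -0.0594 for Hba-a1 and -0.17 for Hbb, fat in sham hearts 0.0756 for Ahsp, and the interaction -0.251 for Alas2.

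With each animal left out, signs changed within these ranges: ligation on chow, Hemgn -0.0969 to 0.139 and Alas2 -0.156 to 0.105; ligation on fat, Hba-a1 -0.115 to 0.0282, Hbb -0.252 to 0.0267 and Alas2 -0.108 to 0.128. Fat in sham hearts gave Hbb -0.0331 to 0.203, Ahsp -0.247 to 0.0287 and Alas2 -0.221 to 0.0277, and fat in ligated hearts gave Alas2 -0.159 to 0.0629. The interaction of Alas2 ran from -0.112 to 0.149, and ligation over both diets from -0.115 to 0.145 for Ahsp and -0.0814 to 0.0594 for Alas2.

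Counts of called genes over the whole array moved too. The reported counts were 49 for ligation on chow, 94 for ligation on fat, 2 for fat in sham hearts, 1 for fat in ligated hearts, 0 for the interaction, 330 for ligation over both diets and 6 for fat over both surgeries. With the batch as a block, ligation on fat called 56 and fat in ligated hearts 0. Median scaling called 0 for ligation on chow, 10 on fat, 57 over both diets and 0 for fat in ligated hearts. No filter on dim probes called 59 for ligation on fat, 1 for fat in sham and 0 in ligated hearts, probes detected on all arrays 0 and 0 for the latter pair, a variance trend 1 and 2, and only the 12 arrays of the comparison 6 and 0. Within high-background arrays the counts were 3, 9, 0 and 0 for the first 4, 12 for ligation over both diets and 0 for fat over both surgeries; within low-background arrays they were 0, 4 and 0 for the first 3, 30 and 1. Leaving out each animal gave 24 (without ligated chow animal 4) to 110 (without ligated chow animal 21) for ligation on chow, 44 to 181 for ligation on fat, 1 to 5 for fat in sham hearts, 0 to 7 for fat in ligated hearts, 258 to 494 for ligation over both diets and 6 to 9 for fat over both surgeries.

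Of the 10 pairs of members, 8 were called with group means only, with median scaling and in the authors' normalized table, 2 within high-background and 3 within low-background arrays, and 6 without the 2 farthest animals. An alternative chosen after seeing the data, without animal 21, called 6. All these counts rest on the permutation p, which does not allow for the means removed beforehand. Of the 10 genes most alike, 8, 8, 9 and 8 remained with group means only, median scaling, the authors' table and Hbb in the score, and 6 without animal 21; these alternatives were also chosen after seeing the data.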
